A study of Mus musculus with 6 samples.

Results

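Transcripts of 10 nuclear receptors of liver metabolism were followed in 6 mouse livers. The members are the rows whose gene name is Ppara, Ppard, Pparg, Rxra, Nr1h2, Nr1h4, Nr1i2, Nr1i3, Nr0b2 or Esr1. All 10 were found, each as 1 row of the 28601 genes in the deposited table, and all 10 passed the filter on low counts that left 18648 genes to test. Of the mice, 3 carried the PRDX1 Cys52Ser substitution and 3 were wild type (WT). PRDX1 is a peroxiredoxin, an enzyme that reduces peroxides, and the substituted cysteine is the one that reacts with them. All 6 mice were male and were fed CDAHFD, a high-fat diet that lacks choline and replaces protein with defined amino acids, and that brings on steatohepatitis and fibrosis in mice. By their titles and the series design the mice started the diet at an age of 8 weeks and ate it for 8 weeks. The treatment field of the same samples gives 11, 12 and 13 weeks for Cys52Ser and 8, 9 and 10 weeks for WT. If those weeks held, genotype and feeding time cannot be told apart. No mice on a normal diet were analysed here, so all values describe livers under this diet, and no hour of collection is given in the sources used here.

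Nuclear receptors are transcription factors whose activity is set by small lipophilic molecules. Ppara (PPARalpha), Ppard (PPARdelta) and Pparg (PPARgamma) respond to fatty acids, Nr1h2 (LXRbeta) to oxysterols, Nr1h4 (FXR) to bile acids, Nr1i2 (PXR) and Nr1i3 (CAR) to drugs and other foreign compounds, and Esr1 (estrogen receptor alpha) to estrogens. Most of them bind DNA as a pair with Rxra (RXRalpha), while Esr1 pairs with itself. Nr0b2 (SHP) stands apart: it lacks a DNA-binding domain, is counted among the orphan receptors, is induced by FXR and represses other factors. In liver, PPARalpha drives fatty acid oxidation, PPARgamma favours lipid storage, FXR and SHP limit bile acid synthesis, and PXR and CAR control cytochrome P450 genes.

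Total counts per library were 56473479 to 73900923 in Cys52Ser and 53318196 to 65465225 in WT. Levels below are library-scaled counts (CPM, scaled by trimmed mean of M values), and the test was edgeR's quasi-likelihood test with Benjamini-Hochberg adjustment over all tested genes at a threshold of 0.05. It called 928 genes, or 4.98% of those tested, with 469 higher and 459 lower in Cys52Ser. The libraries also differed in their share of hepatocyte transcripts. Albumin took 8.08% to 8.49% of counts in Cys52Ser and 3.598% to 5.553% in WT. All 10 hepatocyte markers had positive log2 fold changes with a median of 0.87, 3 of them passed (Cps1, Hpd and Hnf4a), and none was at 0. Their summed level was 110200 to 135800 CPM in Cys52Ser and 42660 to 71880 CPM in WT. Albumin made up most of that sum, at 85850 to 104300 CPM in Cys52Ser and 29790 to 53150 CPM in WT. The log2 fold change was 0.27 for Apob (edgeR adjusted p = 0.388) and 0.47 for Tat (edgeR adjusted p = 0.725). In whole liver, fewer cells of a type and less RNA per cell cannot be told apart. Prdx1 itself was at 780 ± 105 CPM in Cys52Ser and 920 ± 57.2 CPM in WT (SD, n = 3 each; edgeR adjusted p = 0.421), and a change of 1 residue is not visible in such counts.

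Of the 10 receptors, 3 rose in Cys52Ser (Ppara, Esr1 and Rxra) and none fell, where 2.52% of all tested genes rose and 2.46% fell. When libraries were instead scaled to the hepatocyte markers, none rose and 2 fell (Pparg and Nr1h2), with 46.3% of all genes called. Nr1i3 had the largest difference of the 10 but missed the threshold, and Pparg leaned the other way without passing. The groups did not overlap for 5 receptors (Ppara, Rxra, Nr1i2, Nr1i3 and Esr1), against 29.7% of all tested genes. The count of risen receptors was 0, 3 and 0 without Cys52Ser replicates 1, 2 and 3. It was 0, 1 and 2 without WT replicates 1, 2 and 3. Each such fit compares 3 mice with 2. The same fits called 22, 287 and 21 of all tested genes as higher without Cys52Ser replicates 1, 2 and 3. They called 210, 43 and 378 as higher without WT replicates 1, 2 and 3, against 469 with all mice. Calls lost in these fits, for the genes and lists below, are to be read against these totals. With 3 mice against 3, the exact two-sided permutation test of a single gene cannot go below 0.1, and it gave 0.1 for each of these 5 receptors.

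**Figure D1:**
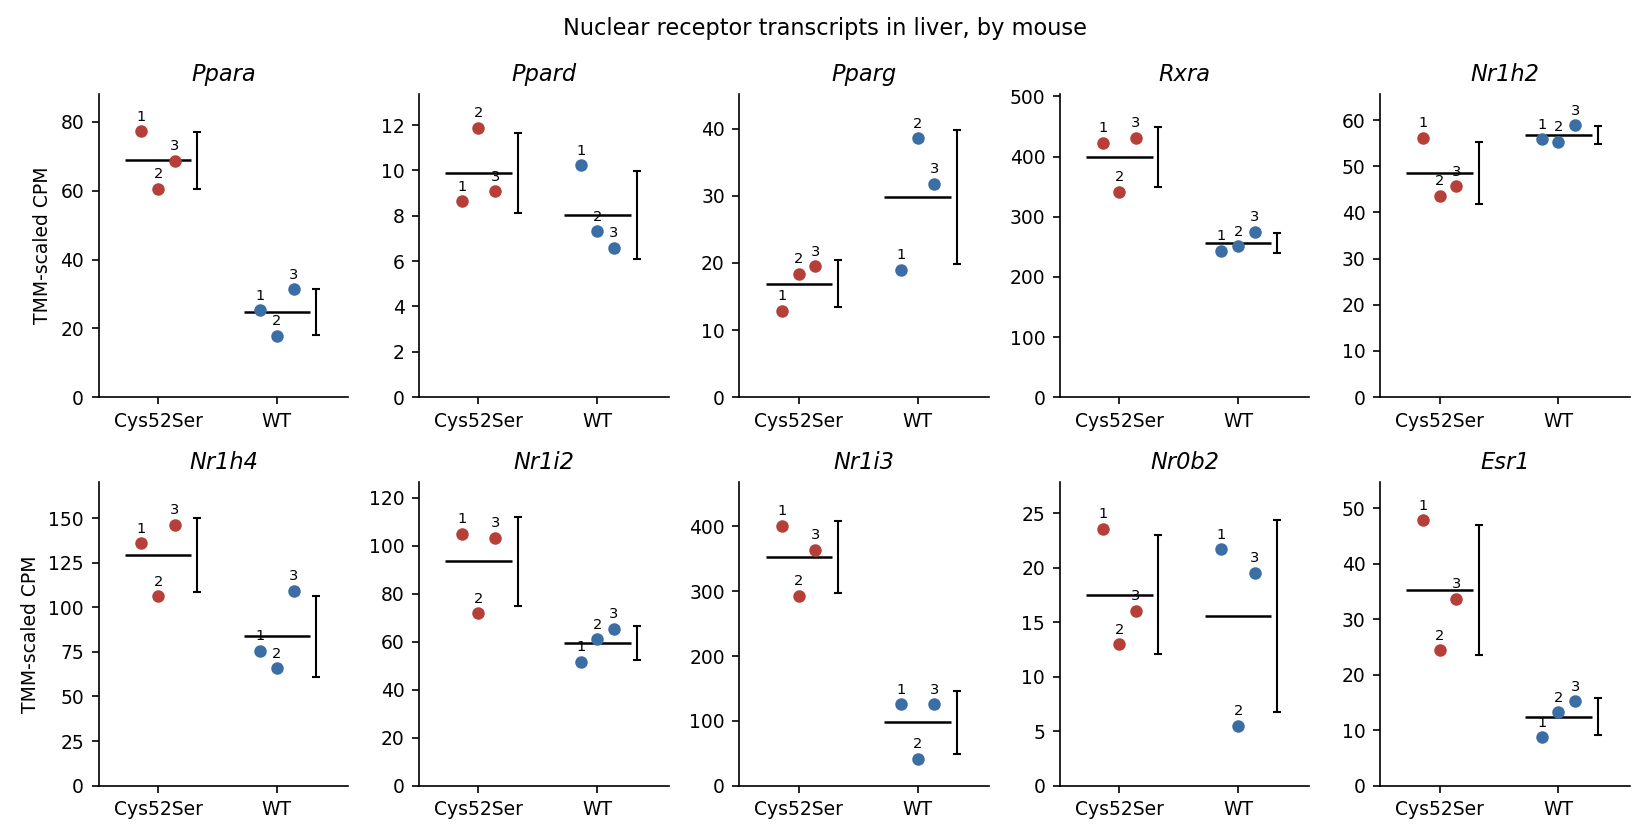
Level of each receptor in each liver, in TMM-scaled CPM on axes that start at 0, with Cys52Ser on the left and WT on the right of each panel; numbers are replicates, horizontal lines group means and bars the SD (n = 3 each). Ppara was at 60.6 to 77.3 CPM in Cys52Ser and 17.8 to 31.4 CPM in WT, without overlap, whereas the groups overlapped for Nr0b2.

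Sequence before the start sites was read from RefSeq for all 10 receptors, which gave 14 windows of 250 bases because Pparg, Rxra and Esr1 have more than 1 start. The windows of the 3 receptors that rose and of Nr1i3, which had the largest difference, are shown to let their make-up be compared. The outermost RefSeq start of each was used (GRCm38.p6, all on the plus strand, 5′ to 3′). The windows are chr15:85735526-85735775 for Ppara, chr10:4611739-4611988 for Esr1, chr2:27676951-27677200 for Rxra and chr1:171213720-171213969 for Nr1i3. Those of Ppara, Esr1 and Rxra lie inside the gene spans given with the counts. These spans start further out, at 85734983 for Ppara, 4611593 for Esr1 and 27676440 for Rxra. Capitals mark matches on either strand to the receptor hexamer AGGTCA, the E-box CACGTG, which is its own complement, or the GC box GGGCGG.
Ppara: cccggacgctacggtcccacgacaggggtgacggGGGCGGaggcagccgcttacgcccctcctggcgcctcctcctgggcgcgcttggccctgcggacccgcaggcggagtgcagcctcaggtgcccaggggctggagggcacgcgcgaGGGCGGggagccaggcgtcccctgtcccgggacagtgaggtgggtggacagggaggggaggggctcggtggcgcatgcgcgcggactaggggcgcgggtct
Esr1: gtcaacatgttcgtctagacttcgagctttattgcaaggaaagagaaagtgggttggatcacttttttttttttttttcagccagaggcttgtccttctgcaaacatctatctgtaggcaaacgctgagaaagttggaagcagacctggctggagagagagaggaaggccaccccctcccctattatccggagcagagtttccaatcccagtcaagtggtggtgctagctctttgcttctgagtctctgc
Rxra: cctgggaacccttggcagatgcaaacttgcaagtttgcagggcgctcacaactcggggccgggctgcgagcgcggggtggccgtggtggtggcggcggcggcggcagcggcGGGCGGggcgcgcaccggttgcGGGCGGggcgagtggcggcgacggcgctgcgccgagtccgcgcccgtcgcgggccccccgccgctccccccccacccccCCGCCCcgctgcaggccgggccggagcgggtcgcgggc
Nr1i3: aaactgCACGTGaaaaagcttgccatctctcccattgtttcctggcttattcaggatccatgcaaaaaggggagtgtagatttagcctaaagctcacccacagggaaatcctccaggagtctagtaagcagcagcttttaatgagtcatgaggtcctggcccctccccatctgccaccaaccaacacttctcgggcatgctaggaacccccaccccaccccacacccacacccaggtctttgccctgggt
The Ppara and Rxra windows were rich in G and C, at 76.4% and 81.2%, against 47.6% for Esr1, 53.2% for Nr1i3 and a median of 52.4% over all 32851 windows. Ppara held 2 GC boxes and Rxra 3, and GC boxes were present in 6 of the 14 windows and in 32.7% of all windows. The E-box, the element read by the clock factors CLOCK and BMAL1 among others, was present in Nr1i3, 244 bases before the start, and in Nr0b2, 195 bases before the start, and in 6.02% of all windows. The receptor hexamer was in none of the 4 windows shown. It was in 4 of the 14 windows, those of Nr1h4, the second Rxra start and the first 2 Pparg starts, and in 14% of all windows. None of the 3 motifs was in the shown windows of all 3 receptors that rose.

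Ppara, the fatty acid sensor that turns on mitochondrial and peroxisomal fatty acid oxidation, was at 77.3, 60.6 and 68.7 CPM in Cys52Ser livers and at 25.2, 17.8 and 31.4 CPM in WT livers. Even the lowest Cys52Ser liver lay well above the highest WT liver. The rise was 2.78-fold, with a log2 fold change of 1.47 (95% confidence interval 0.98 to 1.97, edgeR adjusted p = 0.0208). The gene lies on GRCm38 chromosome 15, 85734983 to 85802819, and no other annotated gene overlaps it. Its call held with library totals alone (1.13 on the log2 scale, edgeR adjusted p = 0.0183), a scaling that moved the median of all genes to -0.35. With libraries scaled to the hepatocyte markers, the log2 fold change was 0.60 (edgeR adjusted p = 0.0954) against a median of -0.88 for all genes. It was also lost without Cys52Ser replicate 1 or 3 (adjusted p = 0.0766 and 0.0775) and without WT replicate 1 or 2 (adjusted p = 0.0594 and 0.0541).

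Pparg, which directs adipocyte formation and lipid storage and is also used by macrophages, was at 12.9, 18.4 and 19.5 CPM in Cys52Ser livers and at 19.0, 38.6 and 31.8 CPM in WT livers. WT replicate 1 lay inside the Cys52Ser range, so the groups overlapped. The log2 fold change was -0.82 (95% confidence interval -1.48 to -0.16, edgeR adjusted p = 0.143), and the gene did not pass. By library totals alone it passed as lower (log2 fold change -1.16, adjusted p = 0.0336) and in DESeq2 (-0.81, adjusted p = 0.0348). Adipocyte markers were at or near 0. Of 4 in the table, only Cfd passed the filter, at 0.772 CPM in Cys52Ser and 0.130 CPM in WT. Plin1 had 7, 37 and 10 counts in Cys52Ser and 0, 4 and 0 in WT, Adipoq had 0, 12 and 0 counts in Cys52Ser and 11, 0 and 4 in WT, and Lep had 0, 0 and 0 counts in Cys52Ser and 4, 0 and 0 in WT. Markers of lipid-associated macrophages were lower. All 6 had negative log2 fold changes and none was at 0. Of the 6, 4 passed, where 2.46% of all tested genes fell. Their sum was 581 to 763 CPM in Cys52Ser and 1619 to 2830 CPM in WT. Markers of Kupffer cells, the resident macrophages, leaned the other way. Of 6, 5 had positive and 1 a negative log2 fold change, with a median of 1.12, and 1 passed as higher. The part of these macrophage markers in the Pparg difference was not tested.

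Ppard, the form found in most tissues, was at 8.64, 11.9 and 9.09 CPM in Cys52Ser livers and at 10.2, 7.32 and 6.59 CPM in WT livers. The groups overlapped, and the log2 fold change of 0.29 (95% confidence interval -0.22 to 0.81, edgeR adjusted p = 0.498) became -0.06 with library totals alone. The ratio of Ppara to Pparg within a library, which no scaling between libraries can change, separated the groups. This ratio was chosen after its values were seen. Ppara over Pparg, in FPKM (fragments scaled to transcript length and library size), was 4.63, 2.54 and 2.72 in Cys52Ser livers and 1.02, 0.355 and 0.758 in WT livers. The mean log2 ratio was 1.67 in Cys52Ser and -0.62 in WT (exact two-sided permutation p = 0.1, the smallest that 3 against 3 allows).

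**Figure D2:**
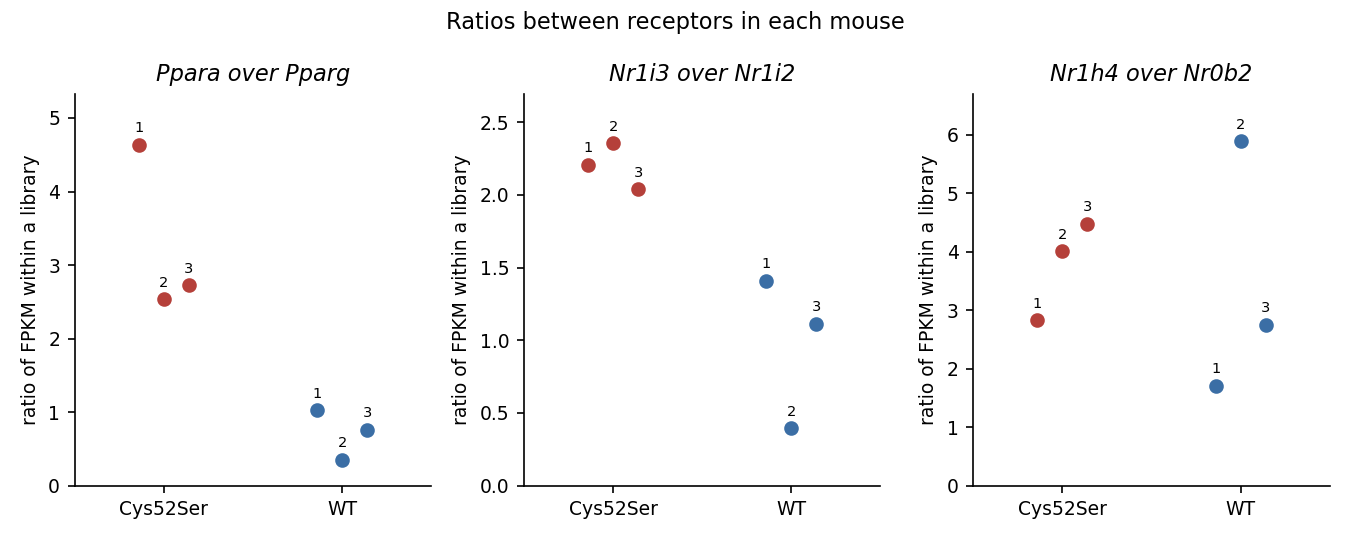
Ratio of FPKM between 2 receptors in each liver, on axes that start at 0, with Cys52Ser on the left, WT on the right and replicate numbers beside the points. Ppara over Pparg was 2.54 or more in Cys52Ser and 1.02 or less in WT, and Nr1i3 over Nr1i2 also separated the groups, but Nr1h4 over Nr0b2 did not.

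Rxra, the shared partner of the lipid and foreign-compound receptors, was at 423, 342 and 432 CPM in Cys52Ser livers and at 243, 252 and 275 CPM in WT livers. The groups did not overlap, and the WT livers were close together. It rose 1.55-fold, with a log2 fold change of 0.64 (95% confidence interval 0.31 to 0.97) and an edgeR adjusted p of 0.049996, at the very edge of the threshold. The call was lost with library totals alone (0.28, adjusted p = 0.0764) and without any 1 of the 6 libraries (adjusted p from 0.0517 to 0.161), and the sign turned when libraries were scaled to hepatocyte markers (-0.24, adjusted p = 0.323; all genes -0.88).

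Esr1, the estrogen receptor of hepatocytes, was at 47.8, 24.5 and 33.7 CPM in Cys52Ser livers and at 8.70, 13.3 and 15.3 CPM in WT livers. Cys52Ser replicate 1 was the highest, and even the lowest Cys52Ser liver lay above all WT livers. It rose 2.85-fold, with a log2 fold change of 1.51 (95% confidence interval 0.81 to 2.21, edgeR adjusted p = 0.0415). In FPKM it was 2.01 ± 0.623 in Cys52Ser and 0.895 ± 0.184 in WT (SD, n = 3 each), so it was a low transcript in both. The printed window before its start held none of the 3 motifs. The call held with library totals alone (1.17, adjusted p = 0.0307). It was lost when scaled to hepatocyte markers (0.69, adjusted p = 0.0686), without Cys52Ser replicate 1 or 3 (adjusted p = 0.103 and 0.12) and without WT replicate 1, 2 or 3 (adjusted p = 0.0986, 0.119 and 0.0623).

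Nr1i3, the receptor CAR, which senses foreign compounds and acts on the Cyp2b and Cyp2c genes, was at 401, 293 and 364 CPM in Cys52Ser livers and at 126, 41.6 and 126 CPM in WT livers. WT replicate 2 was far below the other WT livers, and no WT liver came near the Cys52Ser range. The log2 fold change was 1.85, the largest of the 10, with a 95% confidence interval from 0.86 to 2.84 and an edgeR adjusted p of 0.0562. Without WT replicate 2 the log2 fold change was smaller, at 1.43, and passed (adjusted p = 0.0463), and it passed with library totals alone (1.49, adjusted p = 0.0463) and in DESeq2 (1.86, adjusted p = 8.32e-06). Nr1i3 lies on GRCm38 chromosome 1, 171213970 to 171219001 in the table. Tomm40l overlaps it on the opposite strand and, with use of the strand in counting not given in the sources used here, may share reads. Tomm40l was at 43.9 ± 5.78 CPM in Cys52Ser and 34.7 ± 3.74 CPM in WT (SD, n = 3 each; edgeR adjusted p = 0.185).

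Nr1i2, the receptor PXR, which induces the Cyp3a genes, was at 105, 72.0 and 103 CPM in Cys52Ser livers and at 51.7, 61.1 and 65.4 CPM in WT livers. The groups did not overlap, and the log2 fold change of 0.65 (95% confidence interval 0.25 to 1.06) missed the threshold (edgeR adjusted p = 0.0745). It was 0.30 with library totals alone and -0.21 when scaled to hepatocyte markers, and it passed without Cys52Ser replicate 2 (0.81, adjusted p = 0.0421). The proportion of the 2 foreign-compound receptors within a library also separated the groups. Nr1i3 over Nr1i2, also chosen after the values were seen, was 2.21, 2.35 and 2.04 in FPKM in Cys52Ser livers and 1.41, 0.394 and 1.12 in WT livers (exact two-sided permutation p = 0.1, the smallest possible).

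Nr1h4, the bile acid receptor FXR, was at 136, 106 and 146 CPM in Cys52Ser livers and at 75.8, 66.0 and 109 CPM in WT livers. WT replicate 3 lay just above the lowest Cys52Ser liver. The log2 fold change of 0.63 (95% confidence interval 0.13 to 1.13) missed the threshold (edgeR adjusted p = 0.138), passed without WT replicate 3 (0.81, adjusted p = 0.0485), and was -0.24 when scaled to hepatocyte markers. Nr0b2, whose product SHP is made under FXR control and represses bile acid synthesis genes, was at 23.6, 13.01 and 16.1 CPM in Cys52Ser livers and at 21.7, 5.51 and 19.6 CPM in WT livers. WT replicate 2 was the lowest of all 6 and the other WT livers lay within the Cys52Ser range. Its log2 fold change of 0.17 had a wide 95% confidence interval, from -1.04 to 1.38 (edgeR adjusted p = 0.887), and turned to -0.28 without WT replicate 2. Nr1h2, the oxysterol receptor LXRbeta, was at 56.2, 43.6 and 45.7 CPM in Cys52Ser livers and at 55.8, 55.3 and 58.9 CPM in WT livers. The WT livers were close together and Cys52Ser replicate 1 lay among them, and the log2 fold change of -0.22 (95% confidence interval -0.50 to 0.05) did not pass (edgeR adjusted p = 0.321). It was lower and passed by library totals alone (-0.58, adjusted p = 0.0284) and when scaled to hepatocyte markers (-1.10, adjusted p = 0.0122).

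**Figure D3:**
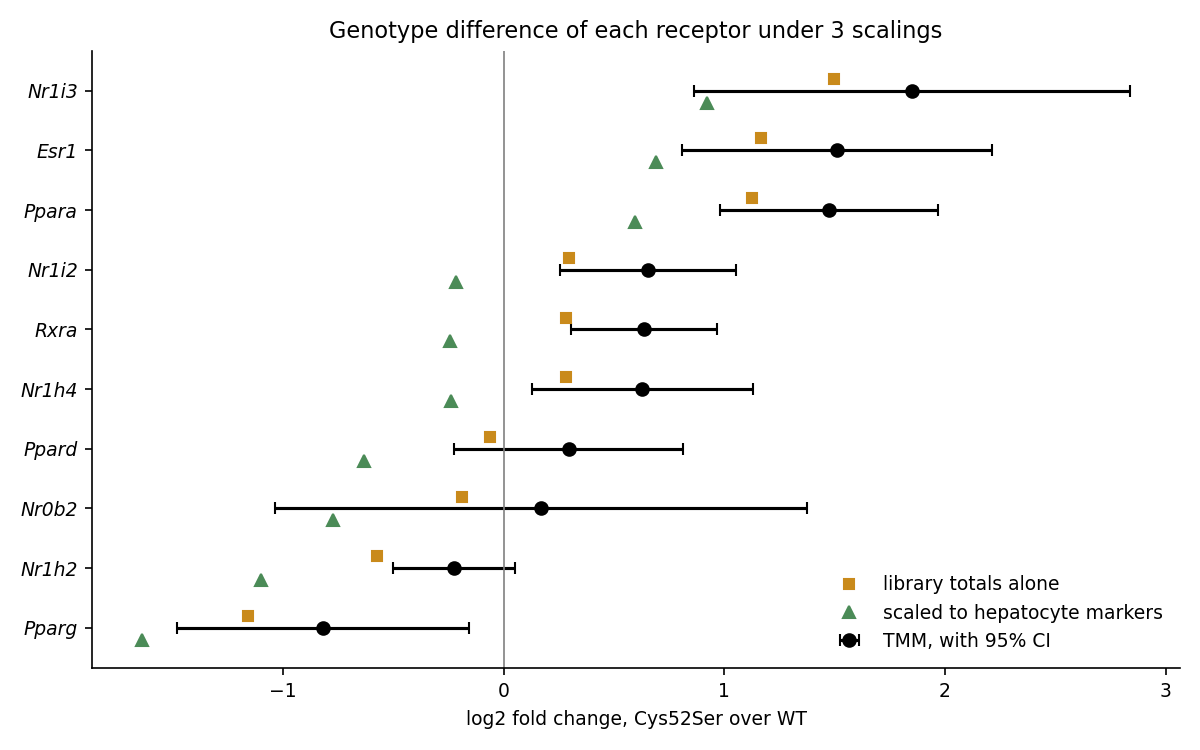
log2 fold change of each receptor, Cys52Ser over WT. Circles with bars are the TMM-scaled edgeR estimates with 95% confidence intervals, squares the estimates from library totals alone and triangles those with libraries scaled to 10 hepatocyte markers. Ppara, Esr1 and Nr1i3 stayed above 0 and Pparg and Nr1h2 below 0 under all 3 scalings, whereas the other 5 changed sign with at least 1 of them.

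Levels can be compared between genes only per transcript length, for which the deposited FPKM values were used. In Cys52Ser livers Nr1i3 was the highest of the 10 at 62.3 ± 7.20 FPKM, and its lowest liver lay above the highest Rxra value. Rxra (49.4 ± 3.04 FPKM) and Nr1h4 (43.8 ± 3.998 FPKM) overlapped, followed without overlap by Nr1i2 (28.5 ± 4.07 FPKM). Ppara (14.02 ± 1.36 FPKM), Nr0b2 (12.1 ± 3.52 FPKM) and Nr1h2 (11.3 ± 1.54 FPKM) came next, with overlap between neighbours. Pparg (3.36 to 5.28 FPKM), Esr1 and Ppard (1.04 ± 0.263 FPKM) were lowest, each apart from its neighbour (SD, n = 3 throughout). In WT livers Rxra (40.6 ± 0.829 FPKM) and Nr1h4 (35.9 ± 7.38 FPKM) led and overlapped. Nr1i2 (23.1 ± 1.195 FPKM), Nr1i3 (22.1 ± 11.2 FPKM), Nr1h2 (16.8 ± 0.931 FPKM), Nr0b2 (13.8 ± 8.08 FPKM), Pparg (9.98 ± 3.12 FPKM) and Ppara (6.41 ± 1.52 FPKM) formed a chain in which every neighbouring pair overlapped. Ppard (1.08 ± 0.344 FPKM) and Esr1 were lowest and overlapped (SD, n = 3 throughout). By mean FPKM, Nr1i3 was thus rank 1 in Cys52Ser and rank 4 in WT, and Ppara rank 5 in Cys52Ser and rank 8 in WT.

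**Figure D4:**
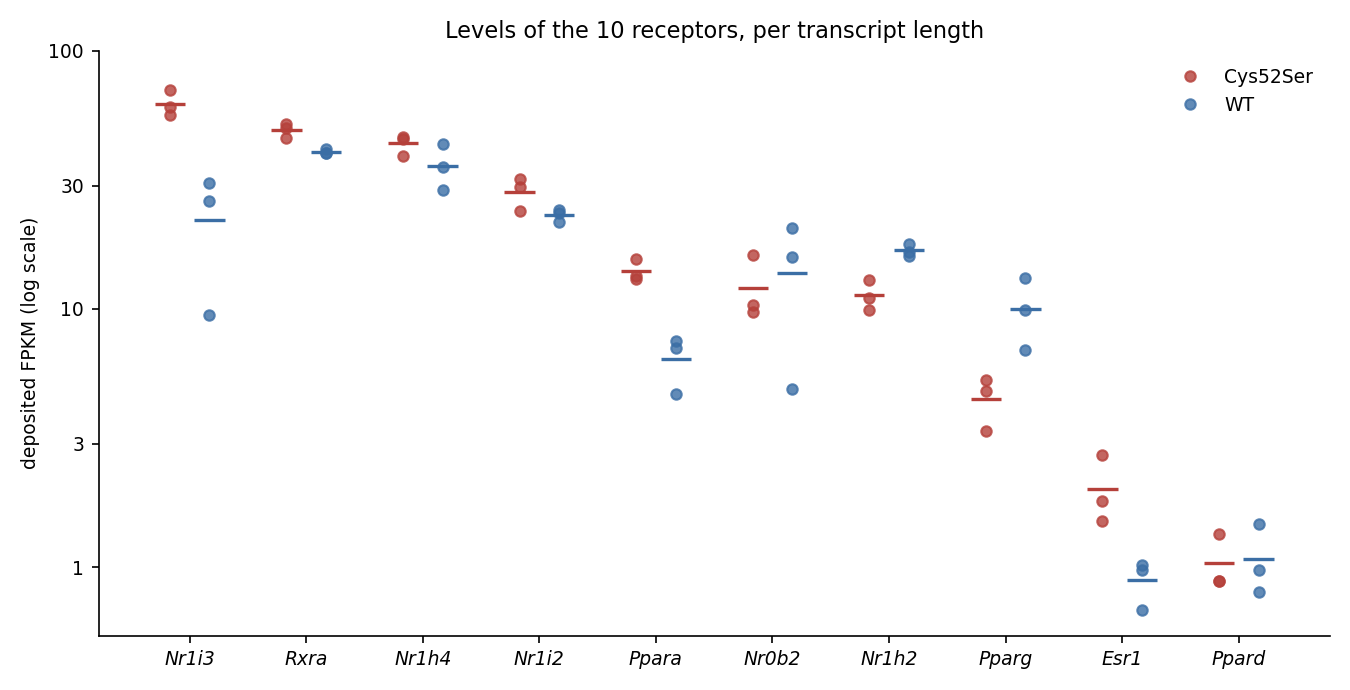
Deposited FPKM of the 10 receptors on a log axis, ordered by their mean in Cys52Ser; points are livers, Cys52Ser to the left of WT for each gene, and lines are group means (n = 3 each). The levels span from about 1 FPKM for Ppard to 62.3 FPKM for Nr1i3 in Cys52Ser, and the 3 WT values of Nr1i3 run from 9.47 to 30.6 FPKM.

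Genes that the receptors are known to control were read from lists of textbook targets. Of 38 PPARalpha targets, 8 rose and none fell, with a median log2 fold change of 0.54, against 2.52% risen and a median of 0.00 over all tested genes. Pex11a, which makes peroxisomes divide, was at 168 ± 20.2 CPM in Cys52Ser and 86.7 ± 14.9 CPM in WT (SD, n = 3 each), 1.94-fold higher (edgeR adjusted p = 0.0267). Mgll, which releases fatty acids from monoglycerides, rose 2.07-fold. The acyl-CoA thioesterases Acot4 and Acot3 rose 3.40-fold and 9.13-fold, but they are close paralogs that also overlap another gene model, so their values are uncertain. Other targets did not pass. The log2 fold change was 0.70 for Fabp1, a fatty acid carrier and by FPKM the most abundant of the list (edgeR adjusted p = 0.0936). Cpt1a, which admits fatty acids to mitochondria, stood at 0.46 (adjusted p = 0.234) and Cyp4a14 at 0.54 (adjusted p = 0.66). Cyp4a10 stood at 1.24 (adjusted p = 0.0979). Pdk4, which restrains glucose oxidation, stood at -0.36 (adjusted p = 0.442). Fgf21, the fasting hormone of liver, was at 14.4, 14.2 and 15.8 CPM in Cys52Ser livers and at 28.4, 97.3 and 40.9 CPM in WT livers (log2 fold change -1.91, adjusted p = 0.0651). The count of risen targets was 0, 4 and 0 without Cys52Ser replicates 1, 2 and 3, where 22, 287 and 21 of all genes rose. It was 1, 5 and 3 without WT replicates 1, 2 and 3, where 210, 43 and 378 of all genes rose. With library totals alone 5 rose and 3 fell (median 0.19), where 293 of all 18648 tested genes rose and 2724 fell (median -0.35). Scaled to hepatocyte markers 2 rose and 11 fell (median -0.31), where 69 of all genes rose and 8562 fell (median -0.88). These all-gene totals apply to each list below.

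Of 10 tested PPARgamma targets, 1 fell and none rose, with a median log2 fold change of -0.49. The one that fell was Cd36, a fatty acid uptake receptor, at 241, 219 and 250 CPM in Cys52Ser livers and at 438, 392 and 355 CPM in WT livers, 1.67-fold lower (edgeR adjusted p = 0.0328). It did not pass without Cys52Ser replicates 1, 2 or 3 or without WT replicate 2. With library totals alone 3 PPARgamma targets fell (median -0.85), and scaled to hepatocyte markers 5 fell (median -1.36). The medians of all genes were -0.35 and -0.88 on these scales. On the log2 scale Cidec, a lipid droplet protein, stood at -0.74 (adjusted p = 0.201), Fabp4 at -0.24 (adjusted p = 0.407), and Cidea was below 1 CPM in both groups. Of 14 LXR targets, 1 rose: Srebf1, the regulator of fatty acid synthesis, at 284 ± 36.8 CPM in Cys52Ser and 134 ± 40.2 CPM in WT (SD, n = 3 each; edgeR adjusted p = 0.0487). Srebf1 overlaps Rai1 on the opposite strand. The cholesterol exporter Abca1 (0.35, adjusted p = 0.162), the desaturase Scd1 (-0.08, adjusted p = 0.911) and Apoe (0.39, adjusted p = 0.38) did not pass. The LXR median was 0.22. With library totals alone the LXR median was -0.14 (all genes -0.35), and 1 rose and 1 fell. Scaled to hepatocyte markers the LXR median was -0.71 (all genes -0.88), and none rose and 7 fell. The Srebf1 call was lost with library totals alone (0.71, adjusted p = 0.101) and without any 1 library except WT replicate 3, without which the list had 2 risen genes.

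A short list held 3 of the genes that SHP is known to repress, and all 3 rose, while Nr0b2 itself did not pass. Cyp7a1, the rate-limiting enzyme of bile acid synthesis, was at 338, 514 and 677 CPM in Cys52Ser livers and at 78.0, 107 and 155 CPM in WT livers, 4.50-fold higher (edgeR adjusted p = 0.0243). Cyp8b1, which sets the share of cholic acid, rose 2.74-fold (edgeR adjusted p = 0.0353) and Slc10a1, the transporter that takes bile acids up from blood, rose 2.69-fold (edgeR adjusted p = 0.0243). None of the Cys52Ser livers overlapped the WT livers for these genes, a separation that 29.7% of all tested genes also had. The count was 0, 3 and 0 without Cys52Ser replicates 1, 2 and 3, 0, 0 and 3 without WT replicates 1, 2 and 3, and 2 when scaled to hepatocyte markers. Of 10 tested genes that FXR induces, 2 rose, with a median log2 fold change of 0.42. These were Slc27a5, which activates bile acids for conjugation (2.28-fold, edgeR adjusted p = 0.0243), and Fetub, a secreted fetuin (1.73-fold, edgeR adjusted p = 0.047). Abcb11, the bile salt export pump, was at 241 ± 33.6 CPM in Cys52Ser and 285 ± 52.2 CPM in WT (SD, n = 3 each), which missed the threshold (edgeR adjusted p = 0.488). Kng1, by FPKM the most abundant of the list, had a log2 fold change of 0.79 (edgeR adjusted p = 0.0896). Fetub and Kng1 are known as FXR targets from human cells. The FXR count was 0, 1 and 0 without Cys52Ser replicates 1, 2 and 3, and 0, 0 and 2 without WT replicates 1, 2 and 3. With library totals alone 1 rose and 2 fell (median 0.06), and scaled to hepatocyte markers none rose and 4 fell (median -0.48). The medians of all genes were -0.35 and -0.88 on these scales.

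The PXR and CAR lists share Ugt1a1, Alas1 and Por. Of 12 tested PXR targets 4 rose and none fell, with a median log2 fold change of 0.84, and of 16 CAR targets 3 rose and none fell, with a median of 0.88. Both lists contain Por, the reductase that feeds electrons to all microsomal cytochromes P450, at 735 ± 109.5 CPM in Cys52Ser and 285 ± 90.2 CPM in WT (SD, n = 3 each), 2.58-fold higher (edgeR adjusted p = 0.0382). Ugt1a1, which conjugates bilirubin, rose 1.93-fold, but it shares its end exons with other Ugt1a genes and its value is uncertain. Ces2a, a carboxylesterase, rose 2.39-fold, Cyp3a13 rose 2.24-fold and Cyp2c37 rose 3.47-fold, all members of families of near copies. Neither of the standard indicator genes passed. Cyp3a11, the standard PXR target, was at 1404, 2146 and 2700 CPM in Cys52Ser livers and at 2226, 2096 and 1936 CPM in WT livers (edgeR adjusted p = 0.998), which put the WT livers inside the Cys52Ser range. Cyp2a5, by FPKM the most abundant CAR target, had a log2 fold change of 0.81 (edgeR adjusted p = 0.141). Cyp2b10, the standard CAR target, stood at 0.291, 0.589 and 1.11 CPM in Cys52Ser livers and at 0.101, 1.05 and 0.329 CPM in WT livers, close to the lower limit of measurement in both groups. Without Cys52Ser replicates 1, 2 and 3 the PXR list had 0, 0 and 0 risen genes, and without WT replicates 1, 2 and 3 it had 3, 0 and 1. For CAR the counts were 0, 0 and 0 and then 2, 0 and 0. Scaled to hepatocyte markers, 1 PXR target rose and 2 fell (median -0.02), and 2 CAR targets rose and 4 fell (median 0.0154). The median of all genes on this scale was -0.88.

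None of 4 tested estrogen receptor targets passed. Greb1, a standard target of Esr1, was at 0.361 ± 0.163 CPM in Cys52Ser and 0.783 ± 0.139 CPM in WT (SD, n = 3 each; edgeR adjusted p = 0.257). Tff1, which had the highest FPKM of the list as a mean over all 6 libraries, was at 36.3, 370 and 0.172 CPM in Cys52Ser livers and at 33.8, 20.2 and 32.6 CPM in WT livers, where Cys52Ser replicate 2 set the mean and the rank, since Xbp1 was higher in WT (77.7 FPKM for Xbp1 and 41.05 FPKM for Tff1). The same library was highest for the exocrine pancreas marker Clps, at 23.6, 203 and 0 CPM in Cys52Ser livers and 9.76, 15.1 and 28.9 CPM in WT livers. It was also highest for Krt19 (61.7 CPM), of bile ducts, and Des (60.1 CPM), of stellate cells. The 2 tested pancreas markers summed to 10.8 to 216 CPM in Cys52Ser and 18.7 to 40.8 CPM in WT, and Ctrb1 and Prss2 had at most 10 counts in any library. Their part in the Tff1 value was not tested. Among 17 genes that supply or carry ligands, Akr1d1, a steroid reductase of bile acid synthesis, rose 2.63-fold (edgeR adjusted p = 0.0168), though a processed pseudogene lies within it, and none fell. Scp2, a sterol carrier and by FPKM the most abundant of these, had a log2 fold change of 0.26 (edgeR adjusted p = 0.446). None of 19 coactivators and corepressors passed, with a median log2 fold change of 0.18. Lpin1, also a lipid phosphatase, had the highest FPKM of them as a mean over all 6 libraries, though Hdac3 was higher in WT, and had a log2 fold change of 0.44 (edgeR adjusted p = 0.762). Ppargc1a, the fasting coactivator of PPARalpha, was at 14.1 CPM in Cys52Ser and 10.9 CPM in WT (adjusted p = 0.557), and Ncor1, a corepressor of many receptors, was at 81.7 CPM in Cys52Ser and 71.9 CPM in WT (adjusted p = 0.318). Scaled to hepatocyte markers, 9 of the coregulators fell (median -0.72), 7 of the ligand supply genes fell (median -0.60) and 2 of the estrogen receptor targets fell (median -0.79). None of the 3 lists had a risen gene. On this scale 46.3% of all genes were called, with a median of -0.88. At an unadjusted edgeR p below 0.05, 1 estrogen receptor target (Igf1) and 1 coregulator (Med1) were called, both named after their values were seen. Of all 18648 tested genes, 4181 were below that p. DESeq2 called 1 estrogen receptor target and 1 coregulator as higher, where it called 14.8% of all genes. It called 6 ligand supply genes as higher and 1 as lower. In the lists above, it called 20 PPARalpha targets as higher and 2 as lower, and 9 CAR targets as higher and 1 as lower. It called 6 PXR targets, 4 LXR targets, 4 FXR-induced genes and 3 SHP-repressed genes as higher and none as lower. Of the PPARgamma targets it called 2 as lower and none as higher.

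**Figure D5:**
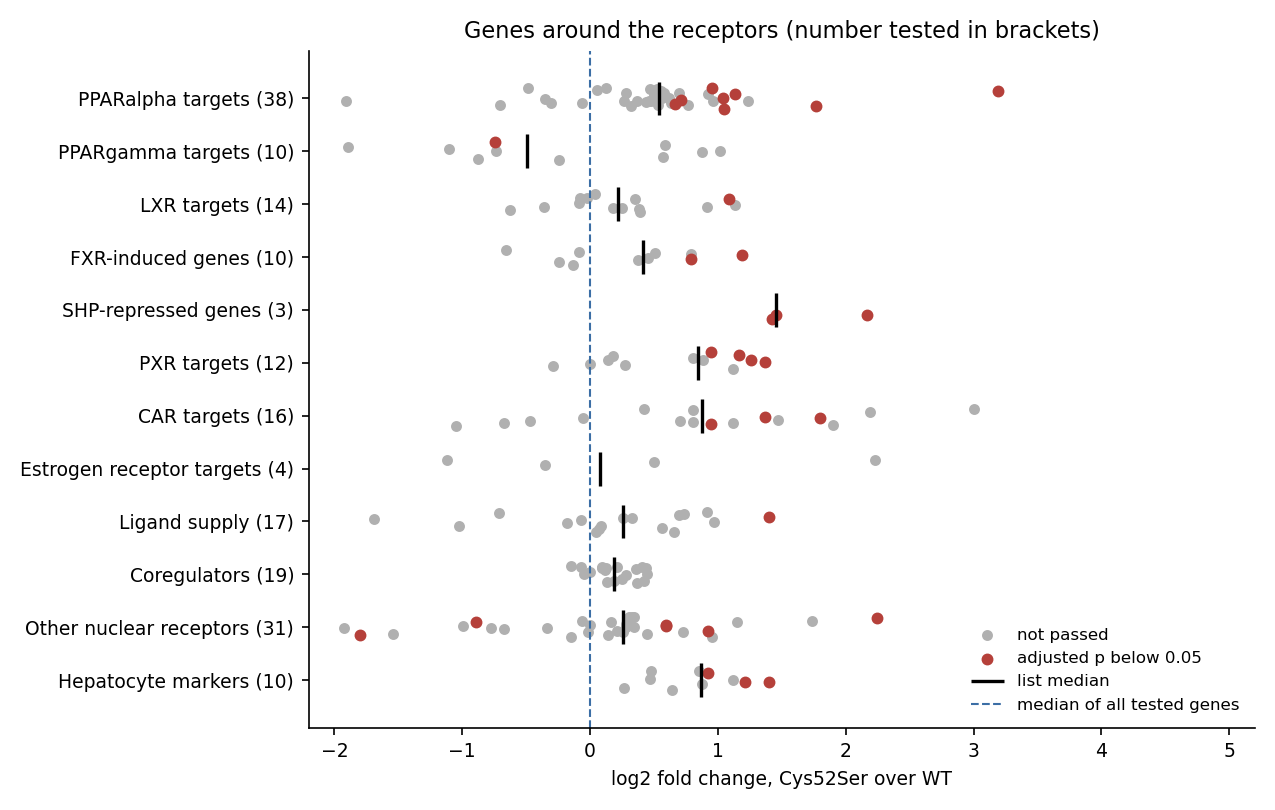
log2 fold change, Cys52Ser over WT, of each tested gene in the lists around the receptors and of the hepatocyte markers; red points passed the edgeR test, grey points did not, black bars are list medians and the dashed line is the median of all tested genes. The 3 listed genes repressed by SHP all lie above 1 and the medians of the PXR, CAR and hepatocyte lists lie between 0.84 and 0.88.

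Among 31 tested nuclear receptors outside the 10, 4 rose and 2 fell, with a median log2 fold change of 0.26. Nr1d1, the clock repressor REV-ERBalpha, was at 19.4, 15.6 and 14.4 CPM in Cys52Ser livers and at 63.4, 44.3 and 64.1 CPM in WT livers, 3.48-fold lower (edgeR adjusted p = 0.0132), and it overlaps Thra on the opposite strand. Hnf4a, the hepatocyte identity factor, rose 1.898-fold (edgeR adjusted p = 0.0355), Rora 1.51-fold and Esrra 1.51-fold. Nr3c2, the mineralocorticoid receptor, fell by 0.90 on the log2 scale (edgeR adjusted p = 0.045); it was picked for mention with its values known and falls outside the naming rule. For Rxrb, another RXR form, the log2 fold change was -0.15 (adjusted p = 0.579). The difference between the 2 forms was not tested. Nr1d1 passed in 17 of 18 alternatives, but Rora and Esrra in 7. With library totals alone 2 of the list rose and 4 fell (median -0.09), where 293 of all genes rose and 2724 fell (median -0.35). Scaled to hepatocyte markers 1 rose and 10 fell (median -0.63), where 69 of all genes rose and 8562 fell (median -0.88). The counts of risen receptors in this list were 1, 4 and 1 without Cys52Ser replicates 1, 2 and 3, and 1, 1 and 1 without WT replicates 1, 2 and 3.

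Ppara had the smallest p of the 10, and the genes whose pattern over the 6 livers was most like it were named by the root mean square difference of centred log2 CPM. Slc17a8, a vesicular glutamate transporter gene, was closest at 0.10, with 12.4, 10.4 and 12.1 CPM in Cys52Ser livers and 4.73, 3.16 and 4.80 CPM in WT livers. Zfand4 (0.11) and the carboxylesterase-like Ces4a (0.12) followed. These distances describe 6 libraries and were not tested.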

How the data were processed

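Liver RNA of 6 mice was measured by poly(A) RNA-seq. Per the labels' protocols, libraries were strand-marked, carried unique molecular identifiers and were read as 150-base pairs. Tools named in the submitters' processing notes, with no role or order, are HISAT2 2.0.4 and cutadapt 1.9, then UMI-tools, edgeR, DESeq2 and StringTie 1.3.4d, and the build named is mm9. The coordinates are not mm9: of 28524 identifiers found in GENCODE M21 (GRCm38), 86.8% had identical positions, so positions are given as GRCm38. Per the file headers, the authors deposited whole-number counts and FPKM values, the second being relative to transcript length and library size. The sources used here do not say whether counting used the strand.

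The titles gave the groups. Nothing says how the mice were housed or paired. Counts were tested with edgeR 4.0.16 in R 4.3.3 (TMM factors, filterByExpr at a minimum count of 10, genotype as the only term of a robust quasi-likelihood fit), tested first on simulated data. Alternatives used limma 3.58.1 on log2(FPKM + a pseudocount of 0.5, 0.1 or 1), DESeq2 1.42.0, other scalings and filters, a replicate block, and each library left out. A list is described by its counts and median, without a set test. The members, lists and rules were chosen with earlier results of these data known. Named genes were the 10 members, up to 5 called genes of smallest p and the most abundant gene of each list, a fixed set, and the 3 genes most like the member of smallest p. Intervals rest on a standard error taken from each log2 fold change and its F statistic. Counting error is small at these depths, and the spread between mice sets the precision. Some genes that the naming rule selects are not reported here.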

Additional observations from a re-analysis of the deposited data

How the results depend on the processing

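Of 19 alternatives, 18 were planned and 1, scaling to the 10 hepatocyte markers, was chosen after seeing the data. Log2 fold changes are Cys52Ser over WT, and adjusted p-values are from edgeR unless another tool is named. Library totals alone called 3017 genes (293 higher, 2724 lower; 9.71% higher, against 50.5% with TMM) and 5 receptors, 2 of them lower (Pparg and Nr1h2). DESeq2 called 2766 genes (1498 higher, 1268 lower) and 7 receptors, 6 higher and 1 lower. Limma on log2 FPKM called 2820, 2908 and 2686 genes with pseudocounts of 0.5, 0.1 and 1, of which 2498, 2585 and 2370 were lower, and 5 receptors each, 2 of them lower. Without the filter it called 174 higher and 1091 lower, and 1 receptor, which was higher. Hepatocyte scaling called 8631 genes (69 higher, 8562 lower) and no receptor higher but 2 lower. Leaving out 1 library gave 28 to 790 changed genes, 21 to 378 higher, 7 to 412 lower, and 0 to 3 receptors changed, 0 to 3 higher and 0 lower. The labels do not say that the replicate numbers pair the mice. Same-numbered deviations correlated at -0.04, 0.14 and 0.02 across genes, and 1 of 3 Cys52Ser libraries correlated best with its own number. With 3 mice per group these values cannot decide whether mice were paired. With a replicate block, 729 genes changed (426 higher, 303 lower) and 2 receptors rose. Adjusted p ranged from 5.47e-09 to 0.0954 for Ppara, which passed in 14 of 19 alternatives, from 1.62e-05 to 0.12 for Esr1 (11 of 19), from 3.17e-05 to 0.323 for Rxra (5 of 19), from 8.32e-06 to 0.156 for Nr1i3 (7 of 19), from 0.00884 to 0.322 for Pparg (6 of 19) and from 0.0123 to 0.558 for Nr1h2 (5 of 19). They ranged from 0.00479 to 0.419 for Nr1i2 and from 0.0285 to 0.395 for Nr1h4 (2 of 19 each). Signs turned for some values, none of them past the threshold after turning. Ppard was at -0.0604 with library totals, -0.0312, -0.0384 and -0.0251 in limma with pseudocounts of 0.5, 0.1 and 1, -0.0312 without the filter and -0.63 with hepatocyte scaling, which also gave -0.24 for Rxra, -0.24 for Nr1h4 and -0.21 for Nr1i2. Nr0b2 was at -0.19 with library totals, -0.003 and -0.0125 in limma with 0.5 and 1, -0.003 without the filter, -0.28 to 0.44 when 1 library was left out (-0.10 without Cys52Ser replicate 1 and -0.28 without WT replicate 2) and -0.77 with hepatocyte scaling. Cyp3a11 was at 0.0037 with RLE factors and in DESeq2 and -0.23 to 0.22 with 1 library left out, highest without Cys52Ser replicate 1. Tff1 was at -0.82, -1.26 and -0.56 in limma with 0.5, 0.1 and 1, -0.82 without the filter, -0.0547 with the replicate block and -0.66 to 2.81 with 1 library left out, lowest without Cys52Ser replicate 2. Scp2 was at -0.0906 with library totals and -0.0878, -0.0879 and -0.0877 in limma with 0.5, 0.1 and 1. Abca1 was at -0.014 with library totals and -4e-04, 0 and -7e-04 in limma with 0.5, 0.1 and 1. Ncor1 was at -0.17 with library totals and -0.15, -0.16 and -0.14 in limma with 0.5, 0.1 and 1. With 1 library left out, Scd1 ran from -0.35 to 0.11, above 0 without Cys52Ser replicate 1 or 3 or WT replicate 3. Cyp2b10 ran from -0.165 to 1.57, below 0 without Cys52Ser replicate 3 or WT replicate 1, and Lpin1 from -0.0587 to 1.304, below 0 without WT replicate 1. The causes were not tested. Depth was no limit for the receptors, which had at least 335 counts in every library, but Cyp2b10 and Greb1 were near the low end.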

Other observations

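Single WT livers differed in the receptors. WT replicate 2 had the lowest WT value of Ppara (17.8 CPM), Nr1h4 (66.0 CPM), Nr1i3 (41.6 CPM) and Nr0b2 (5.51 CPM) and the highest of Pparg (38.6 CPM). It also had the highest WT value of Fgf21 (97.3 CPM), a liver hormone, and of Cidec (98.9 CPM), a lipid droplet protein, while its Hnf4a level (311 CPM) lay below the 355 and 380 CPM of WT replicates 1 and 3. Nr1i3 over Hnf4a within that library was 0.146 in FPKM, against 0.388 and 0.363 in WT replicates 1 and 3. Other receptors were lowest in another WT liver. WT replicate 1 had the lowest WT value of Rxra (243 CPM), Nr1i2 (51.7 CPM), Esr1 (8.70 CPM) and Pparg (19.0 CPM). Its albumin share, at 3.598% of counts, was also the lowest.

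Set against Hnf4a within each library, some receptors were higher and others lower in Cys52Ser. This scale was chosen after the values were seen. Hnf4a itself rose (log2 fold change 0.92, edgeR adjusted p = 0.0355), so any gene that rose less than Hnf4a is lower on this scale. Ppara over Hnf4a was 0.127, 0.142 and 0.126 in FPKM in Cys52Ser livers and 0.0895, 0.0719 and 0.104 in WT livers. Pparg over Hnf4a was 0.0274, 0.0561 and 0.0465 in Cys52Ser livers and 0.0874, 0.203 and 0.137 in WT livers. Nr1h2 over Hnf4a was 0.105, 0.117 and 0.096 in Cys52Ser livers and 0.226, 0.255 and 0.223 in WT livers. Rxra over Hnf4a was 0.423, 0.489 and 0.484 in Cys52Ser livers and 0.525, 0.619 and 0.555 in WT livers, so Rxra rose less than Hnf4a did. The mean log2 ratio to Hnf4a was higher in Cys52Ser by 1.09 for Nr1i3, 0.59 for Ppara and 0.58 for Esr1, and Cys52Ser minus WT was -0.28 for Rxra, -1.15 for Nr1h2 and -1.70 for Pparg. The exact two-sided permutation p was 0.1 for each of these 6, the smallest possible, which any gene without overlap reaches. Over Hnf4a the groups overlapped for Ppard, Nr1h4, Nr1i2 and Nr0b2, and the same test gave 0.2, 0.3, 0.2 and 0.4. How many genes other than the receptors separate on this scale was not computed.

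Marker transcripts of other liver cell types also differed in these libraries, where 2.52% of all tested genes rose and 2.46% fell. Of 9 stellate cell markers 4 fell (Lum, Col3a1, Lrat and Dcn) and none rose, with a sum of 957 to 1084 CPM in Cys52Ser and 1561 to 2693 CPM in WT. Of 6 Kupffer cell markers 1 rose (Clec4f) and none fell, with a sum of 871 to 1129 CPM in Cys52Ser and 324 to 800 CPM in WT. Their log2 fold changes were positive for 5 and negative for 1 (Adgre1, -0.20). Of 6 markers of sinusoidal endothelium 2 rose (Kdr and Dnase1l3), and of 6 cholangiocyte markers 1 fell (Pkhd1). The cholangiocyte log2 fold changes were negative for 5 and positive for 1 (Krt19, 0.55). Of 5 periportal hepatocyte markers 2 rose (Hal and Cyp2f2), with a median log2 fold change of 1.03, and none of 5 pericentral markers passed the edgeR test, with a median of 0.62. These genes were named after their values were seen, and their part in the receptor values was not tested.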
